A study of Homo sapiens with 6 samples.

Results

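The genes described here are MTOR, RPTOR, DEPTOR, RHEB, TSC1, TSC2, SESN1, SESN2, SESN3 and DDIT4. These genes encode parts of the kinase complex mTORC1, its GTPase switch and regulators upstream of the complex, stress or nutrient sensors among them. They were taken by symbol: every probe set was used whose array annotation lists a member as its only gene. This gave 28 probe sets for 10 genes, of 13572 genes tested, and 22 of the 28 were bright enough to be tested. No member was also listed on a probe set shared with another gene. A gene is represented by its probe set of highest mean, and its other probe sets are given beside it.

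The samples were Kasumi-1 cells, a human line from acute myeloid leukaemia with the fusion gene RUNX1-RUNX1T1. One group of 3 arrays came from cells given 20 nM homoharringtonine (HHT), a plant alkaloid that inhibits peptide elongation at the ribosome, for 24 h, and the other 3 arrays came from cells given vehicle for 24 h. Both groups are the same line. The labels number the arrays of each group 1 to 3 without saying whether each had its own culture, so a p-value here reflects array-to-array spread, possibly technical. The study's title links HHT to MYC, and MYC served as a landmark here: its level was 9.53, 9.75 and 9.97 in HHT cells, against 14.15, 14.14 and 14.16 in vehicle cells, a log2 change of -4.40 (SE 0.0958, limma adjusted p = 5.29e-09).

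mTORC1 is a protein kinase complex that promotes ribosome production and translation and restrains autophagy when amino acids, energy and growth factors are plentiful. The GTPase RHEB switches it on at the lysosome, and the TSC1-TSC2 complex switches RHEB off. Sestrins hold mTORC1 back when amino acids or the cell's redox state are unfavourable, and DDIT4 does so through TSC under hypoxia and other stresses.

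All values are deposited log2 signals, and changes are HHT minus vehicle on that scale. A gene is said to have risen or fallen where limma gave a Benjamini-Hochberg adjusted p under 0.05 over all 32768 probe sets tested. The trimmed mean of the antilog signals was set equal on all arrays, yet the median log2 signal was 5.53 to 5.78 on HHT arrays, against 5.82 to 5.96 on vehicle arrays. The 18 hybridisation controls averaged 11.70 ± 0.0598 on HHT arrays and 11.98 ± 0.0282 on vehicle arrays (SD, n = 3 each), and all 18 were lower on HHT arrays. Setting medians equal would raise the median change of all genes to 0.24, and setting these controls equal would raise it to 0.28. Of the blast markers with a probe set, 4 of 7 lay above 10 in both groups (KIT, MPO, PTPRC and RUNX1T1), while CD34, AZU1 and CD38 were at 8.03, 5.21 and 4.22 in HHT cells, against 9.20, 5.47 and 3.50 in vehicle cells. Of 9 markers of other cell types, EPCAM and CD3D were the 2 above 10, no marker was at 0, and the other 7 had means of 3.88 to 6.63 in HHT cells, against 4.54 to 7.48 in vehicle cells. The log2 of the summed antilog signals of those 9 was 13.48 to 13.57 on HHT arrays, against 14.03 to 14.06 on vehicle arrays. EPCAM, the brightest of them (12.93 in HHT cells, 13.69 in vehicle cells), weighs most in this sum. EPCAM and COL1A1 were called lower in HHT cells and none was called higher. The same sum of the 7 blast markers was 15.42 to 15.47 on HHT arrays, against 15.96 to 16.12 on vehicle arrays, with KIT, CD34 and MPO called lower and PTPRC higher in HHT cells. The part of either list in the results below was not tested.

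Among the 10 genes, TSC1, SESN1 and SESN3 rose, RHEB and DEPTOR fell, and MTOR, RPTOR, TSC2, SESN2 and DDIT4 did not pass the test. Over all genes tested 29.6% rose and 24.2% fell, so 3 and 2 of 10 are near the background of a treatment that moved much of the transcriptome. The HHT and vehicle arrays did not overlap for 5 of the 10 genes, against 62.2% of all genes. The median change of the 10 genes was -0.15, and the median over all genes was near 0 (quartiles -0.46 and 0.50). By probe set, 3 of the 22 tested rose and 6 fell, against 23.0% and 23.3% of all probe sets tested.

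**Figure D1:**
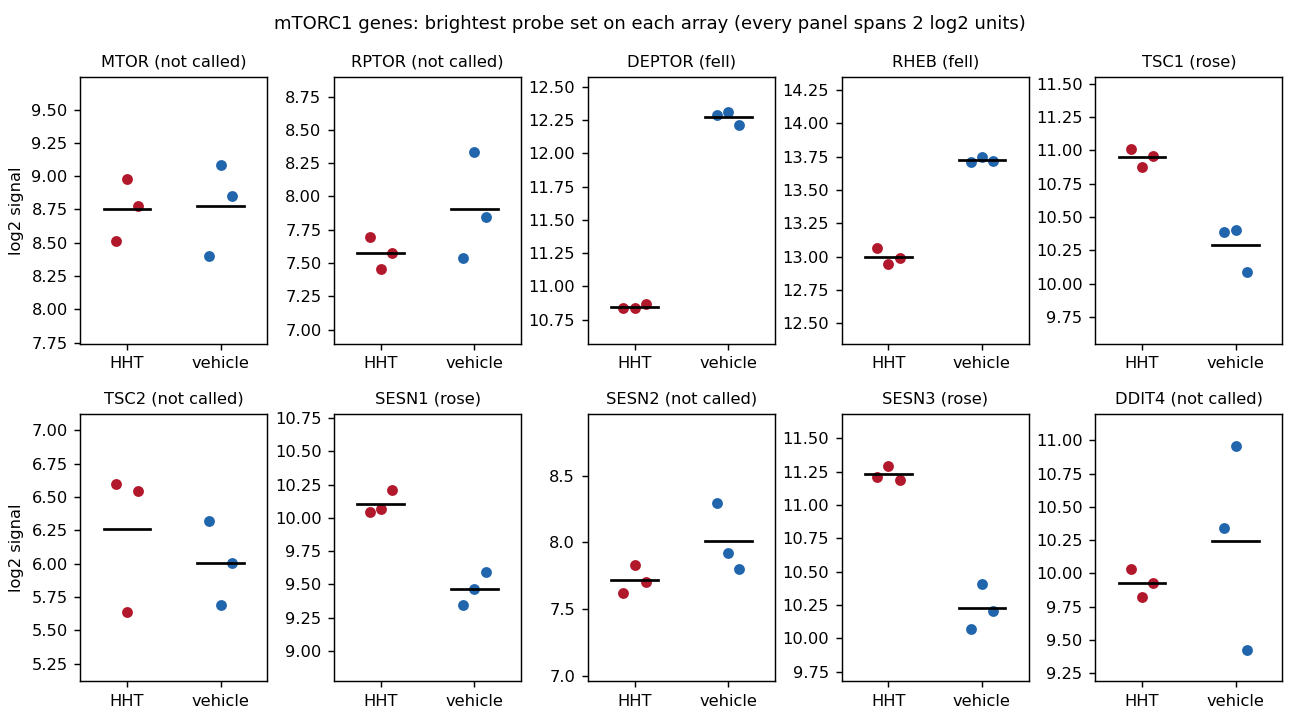
Log2 signal of each member gene on each array, with HHT arrays left of vehicle arrays and a bar at each group's mean. The 3 HHT arrays lie wholly above the vehicle arrays for TSC1, SESN1 and SESN3, wholly below them for DEPTOR and RHEB, and overlap them for the other 5 genes.

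The 250 bases before the annotated start are shown for RHEB, TSC1, SESN1 and SESN3, which rose or fell, and for TSC2, the only member of those searched with the E-box of MYC-MAX and of TFEB and TFE3 in this window. They were read from RefSeq promoters of GRCh38.p14, in which 9 of the 10 members were used (all but DEPTOR), and are written 5′ to 3′ on the gene's strand. The windows are chr7:151519896-151520145 for RHEB on the minus strand, chr9:132944617-132944866 for TSC1 on the minus strand, chr6:109094847-109095096 for SESN1 on the minus strand (the first of 3 starts), chr11:95232476-95232725 for SESN3 on the minus strand and chr16:2047735-2047984 for TSC2 on the plus strand (the first of 2 starts). Capitals mark any match, on either strand, to CACGTG (the E-box), ACGTG (the core of the HIF1A element, also found inside CACGTG), TGATGNAA (an ATF4 and CEBP composite element) or GTAAACA (a FOXO element).
RHEB: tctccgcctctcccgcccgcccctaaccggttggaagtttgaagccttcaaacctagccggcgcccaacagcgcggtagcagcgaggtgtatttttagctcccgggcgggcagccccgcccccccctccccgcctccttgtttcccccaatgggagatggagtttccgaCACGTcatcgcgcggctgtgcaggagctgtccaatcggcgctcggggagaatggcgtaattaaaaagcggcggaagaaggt
TSC1: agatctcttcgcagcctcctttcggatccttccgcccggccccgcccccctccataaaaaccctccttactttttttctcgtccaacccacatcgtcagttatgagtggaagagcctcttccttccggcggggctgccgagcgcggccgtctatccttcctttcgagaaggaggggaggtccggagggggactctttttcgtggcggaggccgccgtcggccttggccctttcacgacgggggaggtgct
SESN1: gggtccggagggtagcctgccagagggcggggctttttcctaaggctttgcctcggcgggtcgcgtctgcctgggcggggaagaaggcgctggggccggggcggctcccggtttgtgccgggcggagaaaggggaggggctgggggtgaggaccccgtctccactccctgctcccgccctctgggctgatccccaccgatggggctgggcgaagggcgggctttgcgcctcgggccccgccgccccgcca
SESN3: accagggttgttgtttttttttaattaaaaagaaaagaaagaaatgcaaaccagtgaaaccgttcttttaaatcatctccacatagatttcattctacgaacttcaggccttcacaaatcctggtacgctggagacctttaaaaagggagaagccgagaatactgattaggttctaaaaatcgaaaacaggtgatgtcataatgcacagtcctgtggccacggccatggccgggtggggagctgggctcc
TSC2: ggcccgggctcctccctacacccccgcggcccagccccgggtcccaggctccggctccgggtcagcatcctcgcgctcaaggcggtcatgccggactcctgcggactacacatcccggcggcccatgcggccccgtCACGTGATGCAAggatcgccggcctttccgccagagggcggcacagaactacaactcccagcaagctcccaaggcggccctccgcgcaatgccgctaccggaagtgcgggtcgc

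Of 35116 promoters of the same length, 6.34% held the E-box, 18.5% the HIF1A core, 3.14% the ATF4 and CEBP element and 2.98% the FOXO element. The RHEB window holds the HIF1A core, as does that of DDIT4. The TSC2 window shown holds the E-box, the HIF1A core and the ATF4 and CEBP element, which overlaps the E-box. The window of the other annotated TSC2 start holds no match to any of the motifs. None of the 4 motifs is in the windows shown for TSC1, SESN1 and SESN3. The FOXO element was in no window of the 9 members. The share of G and C was 42.8% in the SESN3 window, and it was 62% to 74.4% in the other 4. These matches describe letters only, and whether any factor binds there was not measured.

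MTOR, the kinase of the complex, had levels of 8.51, 8.98 and 8.78 in HHT cells, against 8.40, 9.09 and 8.85 in vehicle cells. The groups overlapped over nearly their whole range, and the log2 change was -0.02 (SE 0.182, 95% interval -0.43 to 0.38, adjusted p = 0.935). RPTOR, the scaffold that brings substrates to the kinase, had levels of 7.70, 7.45 and 7.57 in HHT cells, against 7.54, 8.34 and 7.85 in vehicle cells. One vehicle array lay inside the HHT range and the other 2 above it, and the change was -0.33 (95% interval -0.79 to 0.13, adjusted p = 0.219). These p-values do not show that the 2 transcripts stayed the same.

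DEPTOR, a protein that binds mTOR and inhibits it, was the member with the largest change. It had levels of 10.84, 10.84 and 10.87 in HHT cells, against 12.29, 12.31 and 12.21 in vehicle cells. The lowest vehicle array stood 1.34 above the highest HHT array, while the arrays of each group lay within 0.0360 (HHT) and 0.0956 (vehicle) of each other. The log2 change was -1.42 (SE 0.0601, adjusted p = 5.77e-08), which is 2.68-fold lower in HHT cells. Of all genes tested, 389 (2.87%) had a more negative fitted change. Its second probe set was too dim to be tested.

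The genes whose 6 values, taken from each gene's own vehicle mean, were most like those of DEPTOR were TOP1MT, DNAJA1 and PODXL2. Their root mean square differences from DEPTOR over the 6 arrays were 0.0202, 0.0439 and 0.0504 on the log2 scale. TOP1MT fell by 1.40, DNAJA1 fell by 1.38 and PODXL2 fell by 1.40. This is a likeness over 6 arrays and 2 conditions.

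RHEB, the GTPase that activates mTORC1, had levels of 13.06, 12.95 and 12.99 in HHT cells, against 13.71, 13.75 and 13.72 in vehicle cells. Every HHT array was lower than every vehicle array, and the log2 change was -0.73 (SE 0.0517, adjusted p = 1.34e-06), which is 1.66-fold lower. RHEB was covered by 9 probe sets. The second (213404_s_at) fell by 0.69 and the third (1555780_a_at) fell by 0.55, with adjusted p of 5.00e-06 and 5.26e-05. Of dimmer ones, 213409_s_at fell by 1.02 (adjusted p = 0.00250) and 227633_at fell by 1.05 (adjusted p = 0.0180). In all, 5 of 8 tested fell and none rose. The remaining tested sets, 243008_at, 241795_at and 201451_x_at, had changes of 0.44, -0.65 and -1.49, with adjusted p of 0.323, 0.285 and 0.0912. The fifth, 227633_at, lost its call without vehicle 3 (adjusted p = 0.0784) and when medians (adjusted p = 0.0542) or hybridisation controls (adjusted p = 0.0603) were set equal. Some probes of a set whose name ends in x_at can match other transcripts, and RHEB has processed pseudogenes, so the leading set may not measure RHEB alone.

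TSC1 encodes hamartin, which stabilises TSC2 in the complex that turns RHEB off. TSC1 levels were 11.01, 10.87 and 10.96 in HHT cells, against 10.39, 10.40 and 10.09 in vehicle cells. All HHT arrays were higher, and the log2 change was 0.65 (SE 0.0948, adjusted p = 0.000207), or 1.57-fold. TSC2 encodes tuberin, which holds the GTPase-activating domain for RHEB. TSC2 had levels of 6.60, 5.64 and 6.55 in HHT cells, against 6.32, 5.69 and 6.01 in vehicle cells. The groups overlapped, and the change was 0.26 (95% interval -0.52 to 1.04, adjusted p = 0.581). The interval includes the size of the TSC1 change, so a difference between the 2 genes was not shown. TSC2's other tested probe set had a change of -0.12 (adjusted p = 0.889).

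SESN1, a sestrin induced by p53 and FOXO factors, had levels of 10.05, 10.06 and 10.21 in HHT cells, against 9.35, 9.47 and 9.59 in vehicle cells. The groups did not overlap, and the log2 change was 0.64 (SE 0.0954, adjusted p = 0.000264), or 1.55-fold. SESN2, a sestrin that binds leucine and is induced by ATF4, had levels of 7.62, 7.83 and 7.71 in HHT cells, against 8.30, 7.92 and 7.80 in vehicle cells. One HHT array reached the vehicle range, and the change was -0.29 (95% interval -0.66 to 0.09, adjusted p = 0.190). Its other probe set had a change of -0.19 (adjusted p = 0.535).

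SESN3, a sestrin that FOXO factors induce, was represented by 225123_at at 11.21, 11.29 and 11.19 in HHT cells, against 10.07, 10.40 and 10.20 in vehicle cells. All HHT arrays were higher, and the log2 change was 1.00 (SE 0.0909, adjusted p = 6.91e-06), or 2.01-fold. That rise rests on this probe set. The other 3 tested sets, 235683_at, 235684_s_at and 235150_at, were much dimmer and had changes of -0.06, -0.38 and -0.11, with adjusted p of 0.857, 0.484 and 0.861. Another 3 were too dim to be tested. With the mean of the gene's tested probe sets in place of the brightest, the change was 0.11 (adjusted p = 0.627) and the call was lost.

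**Figure D2:**
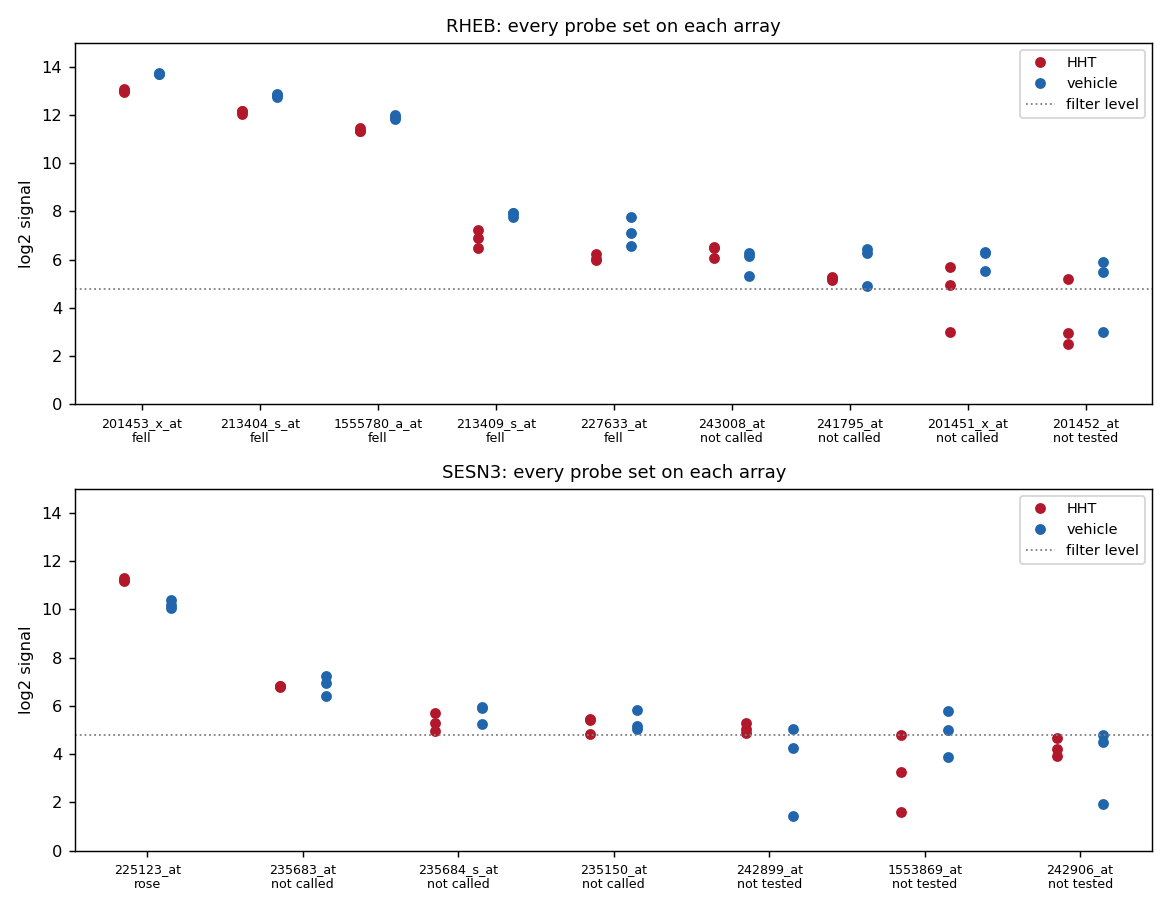
Log2 signal of every probe set of RHEB (top) and SESN3 (bottom) on each array, HHT left of vehicle, with the level of the filter on dim probe sets as a dotted line. Of 8 tested RHEB sets 5 fell in HHT cells, and of 4 tested SESN3 sets the brightest rose.

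DDIT4 (REDD1), a stress-induced inhibitor that acts through TSC, had levels of 10.04, 9.82 and 9.93 in HHT cells, against 10.34, 10.96 and 9.43 in vehicle cells. The vehicle arrays spread on both sides of the HHT arrays, over 1.53 against 0.214. The log2 change was -0.31 (SE 0.289, 95% interval -0.96 to 0.33, adjusted p = 0.406). It depended on single vehicle arrays: without vehicle 3 it was -0.72 (adjusted p = 0.00532), and without vehicle 2 it was 0.04 (adjusted p = 0.894).

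**Figure D3:**
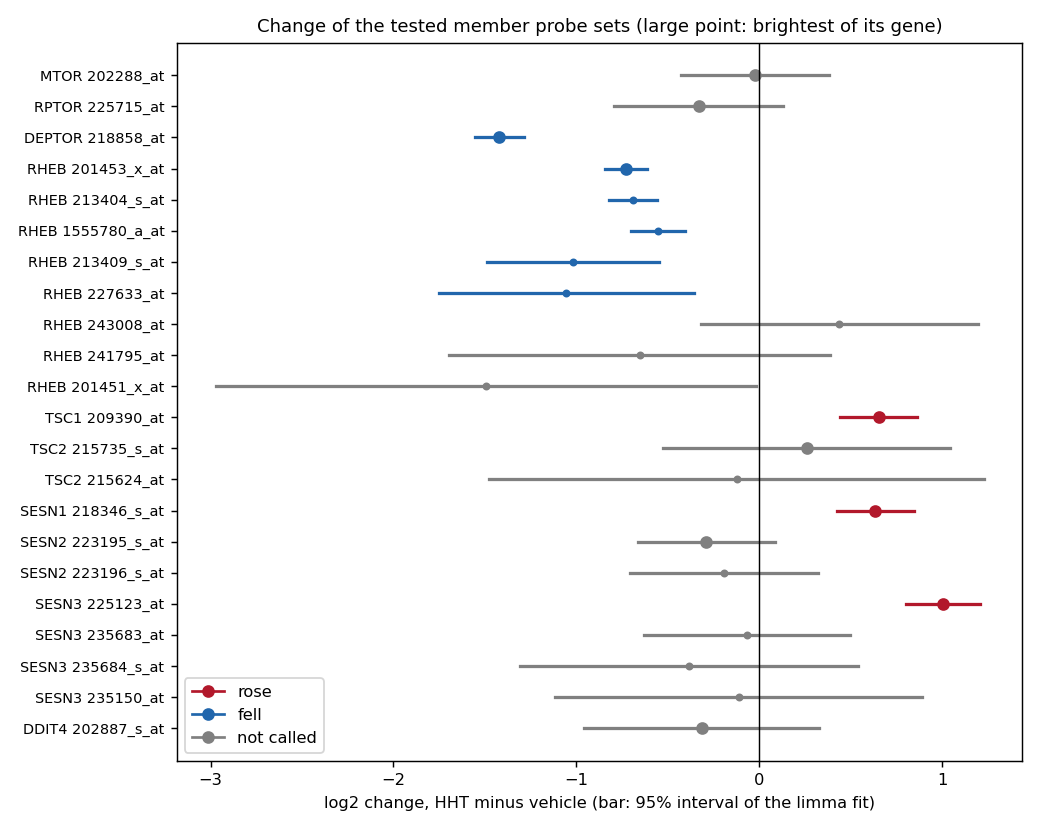
Log2 change (HHT minus vehicle) of all 22 tested member probe sets with 95% intervals from limma, by gene. DEPTOR and the leading sets of RHEB lie below 0, TSC1, SESN1 and 225123_at of SESN3 lie above 0, and the intervals of the leading sets of MTOR, RPTOR, TSC2, SESN2 and DDIT4 include 0.

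Differences between 2 members within an array do not move when a constant is added to all log2 values of that array, as setting medians or hybridisation controls equal does. Quantile normalization can move them. The values here are as deposited. The difference DEPTOR minus MTOR averaged 2.09 ± 0.232 on HHT arrays and 3.49 ± 0.350 on vehicle arrays (SD, n = 3 each), a shift of -1.40. DEPTOR minus RPTOR shifted by -1.09, SESN1 minus SESN2 by 0.92 and SESN3 minus SESN2 by 1.29. In each of these 4 the HHT and vehicle arrays did not overlap, with a two-sided exact permutation p of 0.1, the smallest that 3 against 3 allows. Adjusted over the 5 pairs compared, each is 0.125. TSC1 minus TSC2 shifted by 0.39 with overlapping groups (exact permutation p = 0.3). The pairs were chosen with the results known, and the design could not reach a p under 0.1.

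The 5 called members kept their direction and call under the 3 other scalings of the arrays. DEPTOR changed by -1.18 (medians set equal), -1.44 (quantile normalization) and -1.14 (hybridisation controls set equal), and RHEB by -0.49, -0.44 and -0.44. TSC1 changed by 0.89, 0.56 and 0.94, SESN1 by 0.87, 0.53 and 0.92, and SESN3 by 1.24, 0.92 and 1.29 in the same order. MTOR turned from -0.02 to 0.22 and 0.26 under the first and last of these and was not called. Of all called genes, 55.1% rose as deposited, against 74.7%, 56.5% and 76.4% under the 3 scalings.

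**Figure D4:**
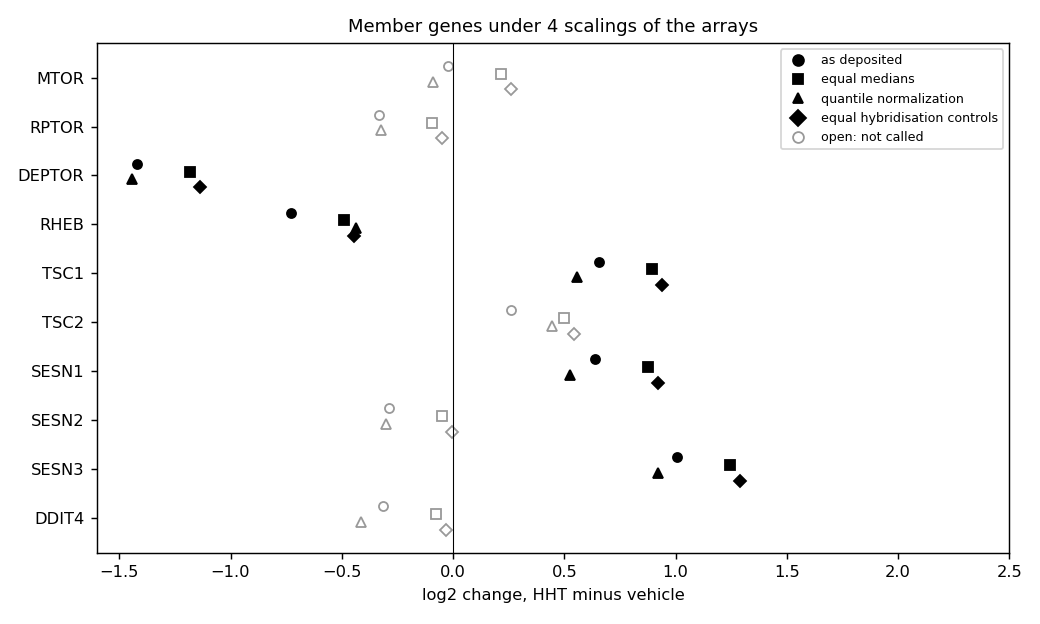
Log2 change (HHT minus vehicle) of each member gene as deposited and under 3 other scalings, with filled symbols for called changes. DEPTOR and RHEB stay below 0 and TSC1, SESN1 and SESN3 stay above 0 under all 4 scalings.

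Around the members, 8 lists of pathway genes were described, with 77 of 86 genes tested. Of the 77 genes, 29 rose and 24 fell. Both are larger shares than the 29.6% and 24.2% of all genes tested. With medians or hybridisation controls set equal, 37 or 40 of the 77 pathway genes rose and 12 or 14 fell. Their median change as deposited was 0.07. Each list count below is to be read against the shares of all genes under the same scaling. With medians set equal, 37.3% of all genes rose and 12.7% fell. The shares were 41.6% and 12.8% with hybridisation controls set equal, and 29.8% and 22.9% with quantile normalization. The largest changes were among mTORC1 substrates and effectors, where 4 of 15 rose and 8 fell (median -0.32). EIF4EBP1, the translation repressor 4E-BP1 that mTORC1 phosphorylates, fell by 2.30 (SE 0.0645, adjusted p = 8.47e-09). TFE3, a lysosomal and autophagy transcription factor that mTORC1 keeps in the cytoplasm, rose by 2.23 (SE 0.130, adjusted p = 3.81e-07), and 1 of its 2 other tested probe sets rose while the other, at -0.96, was not called. Its relative TFEB rose by 1.55, and EEF2K and LARP1 fell by 0.83 and 0.75, genes picked after their values were seen. With medians set equal the list had 5 that rose and 3 that fell (median -0.08), and with hybridisation controls set equal 6 and 3 (median -0.04).

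Among partners of the mTOR complexes, a list that also holds TBC1D7 of the TSC complex, 5 of 10 rose and 3 fell (median 0.19). Those that rose were RICTOR, MAPKAP1, PRR5L, TTI2 and TBC1D7. MLST8 (0.13, adjusted p = 0.367) and AKT1S1 (-0.14, adjusted p = 0.701) were not called. The median of this list was 0.43 with medians set equal, 0.48 with hybridisation controls set equal and 0.10 with quantile normalization. PRR5, a subunit of mTORC2, fell by 1.99 (adjusted p = 2.86e-05), and TELO2, part of the TTT complex that helps mTOR fold and assemble, fell by 1.56 (adjusted p = 1.70e-05). Of TELO2's partners in the TTT complex, TTI1 fell by 0.61 (adjusted p = 6.79e-05) and TTI2 rose by 0.69 (adjusted p = 0.000178). RICTOR, the defining subunit of mTORC2, rose by 1.09 and was picked after its value was seen. Of its 3 other tested sets 2 rose and 1 was not called. Of the Rag GTPases, Ragulator and folliculin genes, which bring mTORC1 to the lysosome, 5 of 12 rose and 2 fell (median 0.33). With medians set equal 9 rose and 0 fell (median 0.57), and with hybridisation controls set equal 10 rose and 1 fell (median 0.61). RRAGC rose by 0.99 (adjusted p = 1.12e-05) and FLCN by 0.80 (adjusted p = 0.00129), though none of FLCN's 3 other tested sets was called.

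GATOR1 and KICSTOR restrain mTORC1 through the Rag GTPases when amino acids are scarce, and GATOR2 opposes GATOR1. In this mixed list 2 of 11 rose, both of KICSTOR (KICS2 and ITFG2), and 4 fell, NPRL3 and NPRL2 of GATOR1 and SEH1L and WDR59 of GATOR2, with a median of -0.19 that turned to 0.05 when medians were set equal and to 0.09 when hybridisation controls were. KICS2 of KICSTOR rose by 1.19 (adjusted p = 0.000319), and 1 of its 2 other sets rose too. NPRL3 of GATOR1 fell by 0.89 (adjusted p = 0.00242), while neither of its other 2 sets was called. Of 4 other amino acid sensors, SAMTOR, the S-adenosylmethionine sensor, rose by 1.24 (adjusted p = 1.53e-05) and LARS1, the leucyl-tRNA synthetase, fell by 0.50 (adjusted p = 3.33e-05). LARS1 lost its call with equal medians (adjusted p = 0.0668). As deposited, 2 of its 3 other tested sets fell and 1, at 0.26, was not called.

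For AMPK, the energy sensor that phosphorylates TSC2 and RPTOR, and its upstream kinases with their partners, 5 of 10 rose and 2 fell (median 0.17). The median was 0.41 with medians set equal and 0.46 with hybridisation controls set equal. The AMPK gamma subunit gene PRKAG1 rose by 1.48 (adjusted p = 1.51e-07) and the beta subunit gene PRKAB2 rose by 0.89 (adjusted p = 5.78e-06), with both of PRKAB2's other sets also called. PRKAA1, PRKAB1 and CAB39 rose too. Of PRKAA1's 3 other tested sets 2 rose and 1 was not called, and PRKAB1's only other tested set was not called. PRKAA2, PRKAG2 and STRADA were not called. The 2 that fell were upstream kinases, STK11 by 0.50 (adjusted p = 0.00311) and CAMKK2 by 0.75 (adjusted p = 0.000453). With medians or hybridisation controls set equal, 1 gene of this list fell. Of the growth factor genes 3 of 7 rose and 3 fell, with a median of -0.29 that moved to -0.05 with medians set equal and to -0.0061 with hybridisation controls set equal. AKT1, the kinase that inactivates TSC2, fell by 0.99 (adjusted p = 0.00251), and IRS2, an insulin receptor adaptor, rose by 0.89 (adjusted p = 0.000355).

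Among known inducers of sestrins and DDIT4, 4 of 8 rose and 1 fell (median 0.34). With quantile normalization 6 rose and 0 fell (median 0.50), and 5 rose and 0 fell with medians set equal (median 0.58) and with hybridisation controls set equal (median 0.62). DDIT3, a stress transcription factor, rose by 1.16 (adjusted p = 1.85e-05), and FOXO1 rose by 0.92 (adjusted p = 0.000419), with 1 of its 2 other sets called. FOXO3, picked after its value was seen, rose by 0.73. ATF4 had a change of -0.15 and was not called (adjusted p = 0.0843). FOXO1 lost its call when a gene's tested sets were averaged (0.68, adjusted p = 0.0635), as did FLCN (0.66, adjusted p = 0.0509) and NPRL3 (-0.55, adjusted p = 0.126).

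**Figure D5:**
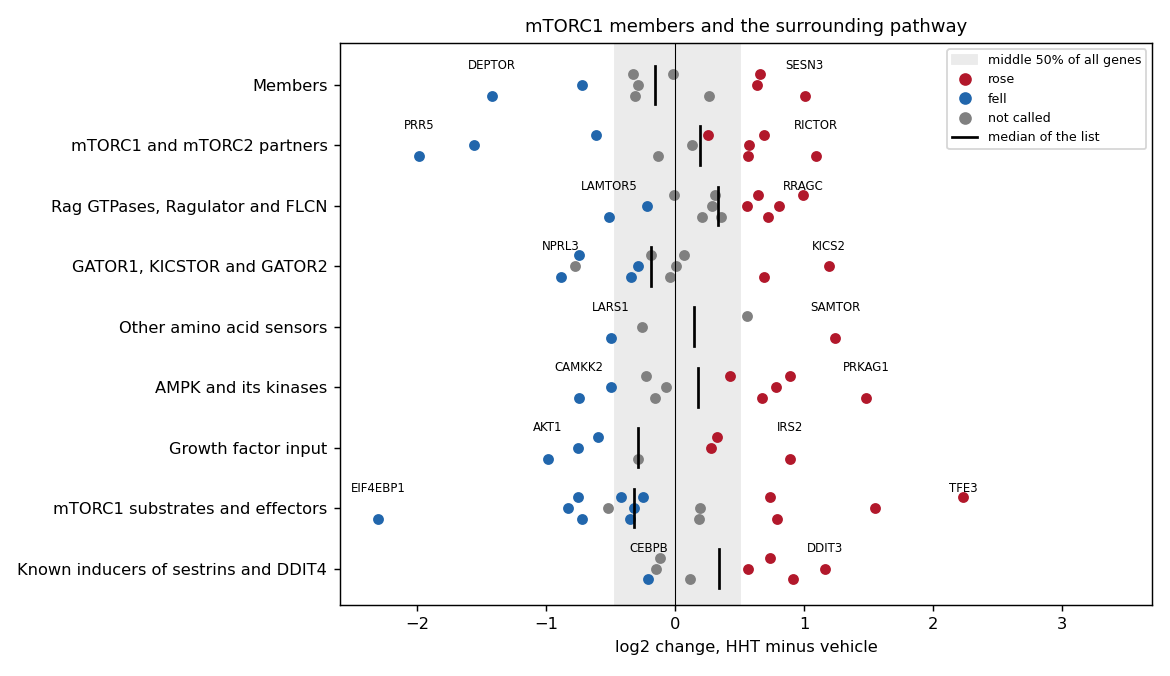
Log2 change (HHT minus vehicle) of each tested gene in the members and the 8 pathway lists, with list medians as bars and the range between the quartiles of all genes shaded. EIF4EBP1 lies at -2.30 and TFE3 at 2.23, the lowest and highest of the listed genes.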

How the data were processed

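RNA of 6 Kasumi-1 samples was measured on 1-colour Affymetrix HG-U133 Plus 2.0 arrays. The authors deposited 1 log2 signal for each probe set and array. Per the submitters' processing notes the tool was MAS5, and no version was found. The 2% trimmed mean of the antilog signals was 500.06 to 500.07 on all arrays. The values show this scaling, and no further normalization was applied here. Of 54675 probe sets, 62 controls were left out of the tests, then the 40% of lowest mean (below 4.80), which left 32768. Names came from the platform annotation (41091 probe sets with 1 gene, 1801 with several, 11721 with none), updated through Entrez IDs for 41037. HHT was set against vehicle on log2 values by limma 3.58.1 under R 4.3.3 (functions lmFit and eBayes, allowing the variance to follow the level), with Benjamini-Hochberg adjustment over all probe sets tested, and the procedure was tested on simulated data. Errors are SE for changes and SD for means. Precision is limited by how few arrays there are. With tested probe sets split by mean into 4 equal classes, the median replicate SD was 0.583 in the dimmest class and 0.0858 in the brightest.

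The text names all members, MYC, the 2 called genes of largest change in each pathway list, and the 3 genes most like the called member of largest change. Other names were chosen after their values were seen. Members, lists, motifs and pairs were chosen with earlier results of these data known. Alternatives were other scalings, filters, a pseudocount, no variance trend, the replicate number as a block, a minimum change, averaging over a gene's probe sets, and omission of each array in turn. Correlations of deviations between equally numbered arrays were 0.0655, -0.0141 and 0.0491, so the numbers were not taken as pairs.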

Additional observations from a re-analysis of the deposited data

How the results depend on the processing

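With equal medians or equal hybridisation controls, 1718 or 1741 genes fell, against 3280 as deposited, and 12 or 14 of the pathway genes fell, against 24. Requiring an absolute log2 change of at least 1 left 1297 genes that rose and 806 that fell, 1 member gene that rose (SESN3) and 1 that fell (DEPTOR), 1 member probe set that rose and 3 that fell, and 7 pathway genes that rose and 3 that fell. With the replicate block, 4061 genes rose and 3333 fell, 3 member genes rose and 2 fell, and 201451_x_at of RHEB was also called (adjusted p = 0.0416). MTOR changed sign to 0.22 with equal medians and 0.26 with equal controls, and ranged from -0.21 to 0.13 when an array was left out. With equal medians, quantile normalization and equal controls, 215624_at of TSC2 was at 0.12, 0.17 and 0.16, 235683_at of SESN3 at 0.17, 0.0088 and 0.22, and 235150_at of SESN3 at 0.13, 0.16 and 0.17. With equal medians and equal controls, 223196_s_at of SESN2 was at 0.049 and 0.094. Leaving out an array gave ranges of -0.61 to 0.36, -0.30 to 0.13, -0.27 to 0.13 and -0.36 to 0.067 for these sets in the order named, and -0.72 to 0.043 for DDIT4. None of these 4 sets was called as deposited. Without HHT 2, 201451_x_at of RHEB was called (-2.07, adjusted p = 0.0354), and without vehicle 2, 241795_at of RHEB was called (-1.14, adjusted p = 0.0377). The leading TSC2 set gave no value under the filter of 60%. The cause of these changes was not tested. Dim probe sets vary most between replicates, which limits what TSC2, and the lesser sets of RHEB and SESN3, can show.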

Other observations

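DDIT4 varied between vehicle arrays more than any other of the brighter genes. Among the 5088 genes with a vehicle mean above 10, a limit chosen after the values were seen, its SD over the 3 vehicle arrays was 0.771, and no other gene had a larger one. The median SD of those genes was 0.0839, and DDIT4's SD over the 3 HHT arrays was 0.107. The next genes in that order were SETD1B (0.678), FUBP3 (0.638), USP32P2 (0.550), SCRN3 (0.503) and KICS2 (0.475). SETD1B was high on vehicle 3 (11.68), whereas DDIT4 was lowest there (9.43), and KICS2 was low on vehicle 1 (9.83). KICS2 is the KICSTOR gene that rose in HHT cells.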
